A study of Homo sapiens with 24 samples.

Results

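The ribosomal protein pseudogenes described here are the genes whose symbol is that of a ribosomal protein gene followed by P and a number (RPL7P7, RPS2P5), with 10 or more reads summed over the 24 libraries. The rule found 462 of the 60605 genes in the count files. One of them, RPS19BP1, is a protein-coding gene for a binding partner of RPS19 whose symbol happens to fit, and it was set aside, which left 461 pseudogenes of 70 parent genes. In all, 1600 symbols fit the pattern, of which 568 had no read and 570 had 1 to 9 reads. At the read minimum, 34 members had exactly 10 reads, and 21 genes just outside it had 9. Of the 461 members, 398 have a single exon and 456 are annotated as processed pseudogenes.

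The study knocked down SFPQ, NONO or NEAT1 in SBC-3, an established small cell lung cancer line, and sequenced poly(A)-selected RNA. All cells were reverse transfected with 10 nM of their reagent using Lipofectamine RNAiMAX and harvested after 72 h. The siRNA arm comprised a control siRNA (siCtrl), 2 siRNAs against SFPQ (siSFPQ-2 and siSFPQ-3) and 2 against NONO (siNONO-3 and siNONO-4). The other arm used antisense oligonucleotides (ASOs): ASO-Ctrl as control and, aimed at NEAT1, ASO-NEAT1-1047 and ASO-NEAT1-1473. Each of the 8 groups had 3 libraries. No untransfected cells were analysed here, and all libraries come from 1 cell line. Nothing in the labels says that replicates came from separate cultures. The p-values therefore reflect only how far these libraries differ, which may be technical.

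Ribosomal protein genes encode the structural proteins of the large (RPL) and small (RPS) ribosomal subunits and are among the most strongly transcribed genes of any cell. Their short, abundant mRNAs have often been copied back into the genome by the reverse transcriptase of LINE-1 elements, which leaves processed pseudogenes: intronless copies without the parent's promoter, scattered over the chromosomes and often inside introns of unrelated genes. SFPQ and NONO are RNA-binding proteins that pair with each other in the nucleus, and NEAT1 is the long noncoding RNA that they help to assemble into paraspeckles. SFPQ is also known to sustain transcription through long introns.

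A read from a young copy can equally come from its parent, while an old copy has gathered enough substitutions to be told apart. The sequences below show this range, and they matter because a read count means different things at the 2 ends of it. Each is a stretch of 120 bases on the pseudogene's own strand, 5′ to 3′, from the GENCODE release 29 transcripts (hg38), taken where it aligns without a gap near the middle of the match to the parent. Capitals mark the bases that differ from the parent.
RPL7AP22: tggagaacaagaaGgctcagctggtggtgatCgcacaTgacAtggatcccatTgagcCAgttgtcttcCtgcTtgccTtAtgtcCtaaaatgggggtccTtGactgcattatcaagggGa
RPL7A: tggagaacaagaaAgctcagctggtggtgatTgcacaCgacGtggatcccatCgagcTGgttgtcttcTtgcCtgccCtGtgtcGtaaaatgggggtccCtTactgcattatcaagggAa
RPS15AP29: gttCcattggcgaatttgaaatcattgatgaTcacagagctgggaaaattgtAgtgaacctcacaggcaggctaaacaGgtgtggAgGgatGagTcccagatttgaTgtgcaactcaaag
RPL5P4: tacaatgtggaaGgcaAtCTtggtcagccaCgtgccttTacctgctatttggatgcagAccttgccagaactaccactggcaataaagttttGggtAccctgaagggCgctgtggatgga
RPS2P5: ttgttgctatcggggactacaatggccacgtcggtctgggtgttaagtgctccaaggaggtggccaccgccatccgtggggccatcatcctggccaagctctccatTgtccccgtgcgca

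RPL7AP22 (chr2:158548864-158548983, plus strand) differs from the RPL7A line under it at 15 bases, RPS15AP29 (chr10:103125157-103125276, minus strand) from RPS15A at 9, and RPL5P4 (chr1:35351105-35351224, plus strand) from RPL5 at 10. In RPS2P5 (chr12:118246463-118246582, plus strand) 1 base differs from RPS2. Over the whole alignment to the parent transcript, identity was 86.6% for RPL7AP22, 92.5% for RPL7P7 and 100.0% for RPL36AP37. Over all members it ranged from 67.2% to 100.0%, with a median of 93.0% (n = 460 that could be aligned).

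By position in the count files' hg38 gene models, 182 members lie wholly inside the span of another gene on the same strand, 93 lie inside a gene on the other strand only, 16 overlap a gene in part, and 170 share no base with another gene and are called intergenic here. Whether the authors' counting used strand, and how it treated reads that map to several places, is not given in the sources used here, so "same strand" describes the annotation and not the reads. Most members were very low: 100 passed the expression filter (about 10 reads at the median depth in 3 libraries) and could be tested, namely 44 inside a gene on the same strand, 21 on the other strand, 7 with partial overlap and 28 intergenic, and 361 did not.

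The 24 libraries held between 4243196 and 14886353 counts, and the 6 siSFPQ libraries were the shallowest group, at 4243196 to 9747514 against 9999025 to 13525528 in siCtrl. Mitochondrial genes took 9.59% to 11.6% of reads in siSFPQ libraries and 7.63% to 9.07% in siCtrl, and the part of depth or RNA quality in the results below was not tested. In bulk RNA, fewer cells that express a gene and less RNA per cell cannot be told apart. SFPQ fell from 1223 ± 40.2 CPM (read counts scaled to library size; mean ± SD, n = 3) with siCtrl to 208 ± 47.3 and 222 ± 27.3 with its siRNAs, and NONO from 399 ± 14.9 to 69.2 ± 9.30 and 70.1 ± 5.06 with its own. NEAT1 was at 297 ± 85.8 CPM with ASO-Ctrl and at 297 ± 47.0 and 206 ± 25.4 in the libraries labelled ASO-NEAT1-1047 and ASO-NEAT1-1473, a log2 difference of -0.26 that was not called, so these counts do not show the knockdown that the labels name. Of 7 neuroendocrine markers fixed for this line, 3 passed the filter (SYP, NEUROD1 and DLL3), while INSM1, CHGA and NCAM1 were at or near 0. Of 9 markers of other cell types, PTPRC, CD3E, CD79A, CD14, DCN and HBB were at or near 0. Those 9 summed to 13.4 to 24.7 CPM in siSFPQ libraries and 11.0 to 41.3 CPM in the others.

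RPL7P7 rose with both siRNAs against SFPQ and was not called in the NONO or NEAT1 comparison. It is a copy of the mRNA of RPL7, a large-subunit protein, and lies in a 38.6 kb intron of RERE, a gene for a transcriptional corepressor, on the same strand (chr1:8786211-8786913). It was at 0.179, 0.204 and 0.437 CPM in the siCtrl libraries, at 2.94, 3.22 and 2.73 CPM with siSFPQ-2 and at 2.51, 4.30 and 4.46 CPM with siSFPQ-3. All 6 siSFPQ libraries were above every other library. Its log2 fold change was 3.48 ± 0.36 (SE; edgeR quasi-likelihood test over all 15869 genes tested, Benjamini-Hochberg adjusted p = 1.86e-09). RPL7P7 passes the expression filter only through the siSFPQ libraries, so being high there was a condition of its being tested. All 22 same-strand members that pass in this way were called higher. The counts behind the fold change of RPL7P7 are small, 10 reads in the 3 siCtrl libraries and 155 in the 6 siSFPQ libraries. Their depth-scaled ratio was 11.6, with a 95% counting interval of 6.16 to 24.8 that covers counting error only. In the siNONO libraries it was at 0.285 to 0.466 CPM, with a log2 fold change of 0.40 (adjusted p = 0.658 by edgeR), while the SFPQ effect exceeded the NONO effect by 3.08 ± 0.27 (edgeR, adjusted p = 6.09e-11). RERE itself rose by a log2 of 1.09 and the parent RPL7 by 0.29, both called.

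Per kilobase, RPL7P7 reached 4.22 and 5.34 CPM with the SFPQ siRNAs, against 315 CPM per kilobase for RPL7 in siCtrl, so the copy stayed far below its parent. Of its 50-base windows, 0.306% also occur in RPL7 and 31.8% occur in RPL7P11, another copy 35.1 kb away. RPL7P11 (chr1:8750430-8751087) also lies inside RERE but on the other strand, and had 9 reads over all 24 libraries, 2 with siCtrl, 2 with siSFPQ-2 and none with siSFPQ-3, which leaves it just outside the rule. A Y_RNA gene 9.66 kb upstream of RPL7P7, on its strand and also inside RERE, had a log2 fold change of 4.01 (adjusted p = 0.000131 by edgeR). The 5 tested genes whose log2 CPM followed that of RPL7P7 most closely over the 24 libraries were RNU6-570P (Pearson r = 0.979), ENSG00000261003 (0.977), ENSG00000274578 (0.975), ENSG00000243944 (0.975) and ENSG00000287214 (0.973). Their mean levels were 0 to 0.255 CPM in siCtrl and 1.20 to 5.71 CPM over the siSFPQ libraries, and the 24 points share libraries and depth.

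**Figure D1:**
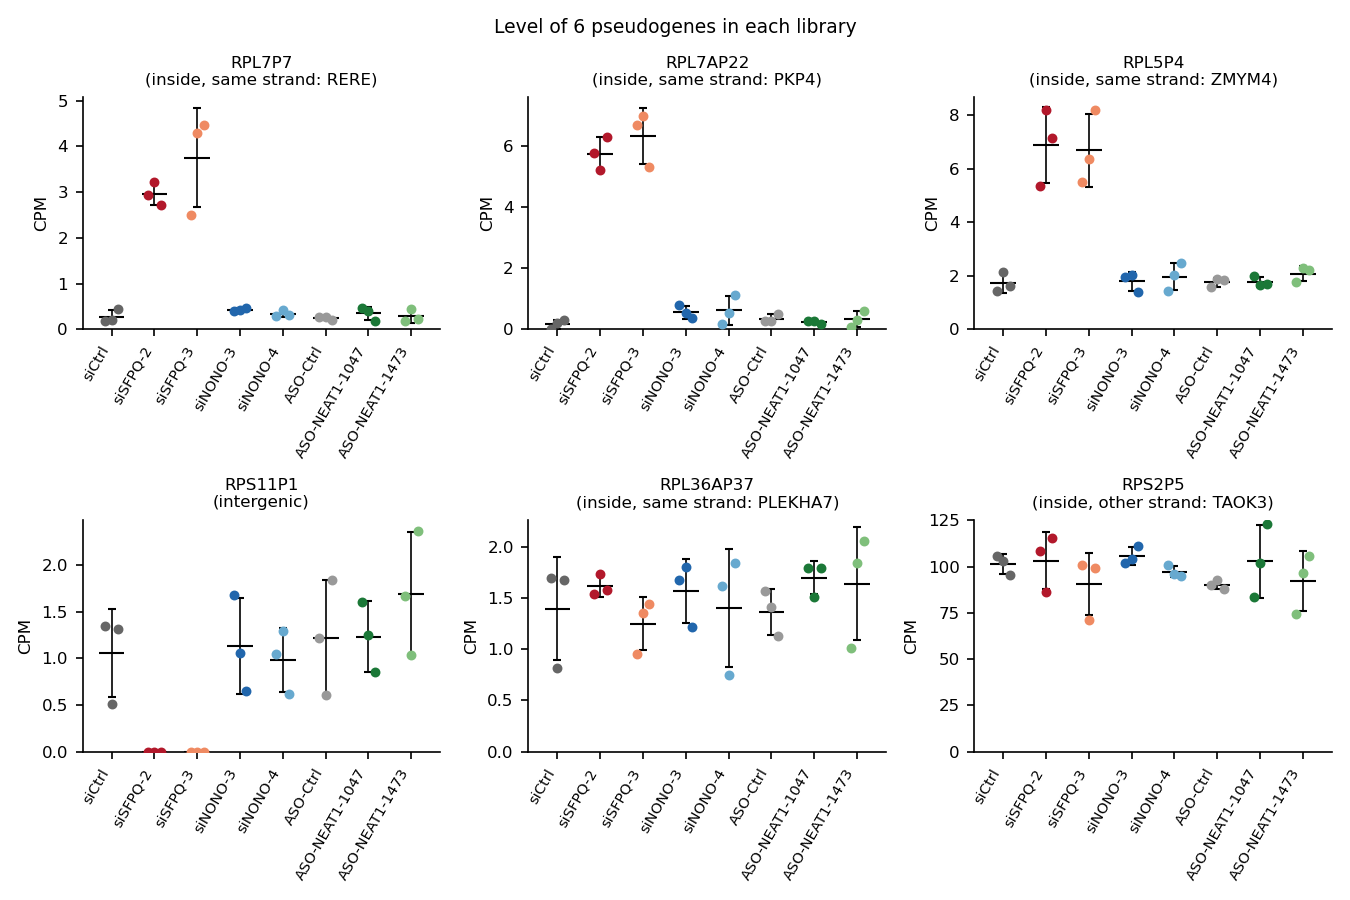
CPM of 6 pseudogenes in each of the 24 libraries (points, by group on the x axis), with the group mean (horizontal line) and SD (error bar, n = 3). RPL7P7, RPL7AP22 and RPL5P4 are higher in all 6 siSFPQ libraries than in every other library, RPS11P1 is at 0 in all 6, and RPL36AP37 and RPS2P5 overlap between groups.

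With SFPQ knockdown, 38 of the 100 tested members rose and 8 fell (adjusted p under 0.05 by edgeR), where 34.7% of all tested genes rose and 35.8% fell. The rise lay with members inside a gene on the same strand, of which 30 of 44 rose and 3 fell, with a median log2 fold change of 1.88. Of the 21 members inside a gene on the other strand, 1 rose and 1 fell (median 0.18). Of the 7 with partial overlap 2 rose and 1 fell, and of the 28 intergenic members 5 rose and 3 fell (median 0.14). The median over all 15869 genes was -0.02. The counts by siRNA were alike: with siSFPQ-2, 30 of the 44 same-strand members rose and 2 fell, and with siSFPQ-3, 29 rose and 2 fell. These 2 comparisons share the siCtrl libraries and the filtered members, so they are not independent. In all genes 32.4% rose and 32.4% fell with siSFPQ-2, and 33.7% and 33.3% with siSFPQ-3.

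Part of these counts is fixed by the filter, since a gene that is near 0 without siSFPQ passes only if it is high with it. Of the 100, 26 passed only through the siSFPQ libraries, and 22 of those are same-strand members. All 22 were called higher. Of the same-strand members named here as rising with siSFPQ, only RPS20P22 and RPL5P4 pass without those libraries. The intergenic RPS15AP36 and RPL5P18 also pass only through them. For such members the p-value is not separate from their selection. Among the 74 that pass on the 18 other libraries alone, 14 rose and 8 fell, shares below the 34.7% and 35.8% of all genes. Those background shares include genes that pass only through siSFPQ libraries, and none under this filter is given here. In that set 8 of 22 same-strand members rose and 3 fell (median 0.58), 1 of 20 other-strand members rose and 1 fell (median 0.17), and 3 of 25 intergenic members rose and 3 fell (median 0.04). The same-strand share of 36.4% is close to that of all genes, which were not filtered in this way.

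The sums over every pseudogene that fits the pattern, with no minimum of reads, need no filter. The 365 same-strand pseudogenes summed to 54.7 ± 9.93 CPM with siCtrl (SD, n = 3), 132 ± 11.3 with siSFPQ-2 and 151 ± 21.4 with siSFPQ-3. Every siSFPQ library (119 to 169 CPM) lay above each of the other 18 (47.7 to 80.5 CPM). The 717 intergenic pseudogenes summed to 80.0 ± 1.43 CPM with siCtrl, 108 ± 1.02 with siSFPQ-2 and 92.2 ± 7.76 with siSFPQ-3. Over both siRNAs they spanned 85.8 to 108 CPM, above the 3 siCtrl libraries (78.3 to 81.0) but overlapping the range of the other 18 libraries together (75.7 to 98.8). These sums include RPS3AP5, which had 88 reads in siSFPQ-2 replicate 1, 60 in ASO-NEAT1-1473 replicate 1 and 1 to 10 elsewhere. The intergenic sums and their SD without it are not given here. The 489 on the other strand, leaving out RPS2P5 because it alone holds most of that class's reads, went from 51.0 ± 2.75 to 66.2 ± 5.21 and 59.0 ± 3.90 CPM. Their siSFPQ libraries (56.2 to 69.9 CPM) also lay above the siCtrl ones (49.2 to 54.1) and overlapped the other groups. The depth-scaled ratios of siSFPQ to siCtrl were thus 2.59 for same strand, 1.25 for intergenic and 1.23 for other strand. Without RPS20P22, the highest of the same-strand risers, the first was 2.34. The 138 same-strand members too low to test had a ratio of 1.62.

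**Figure D2:**
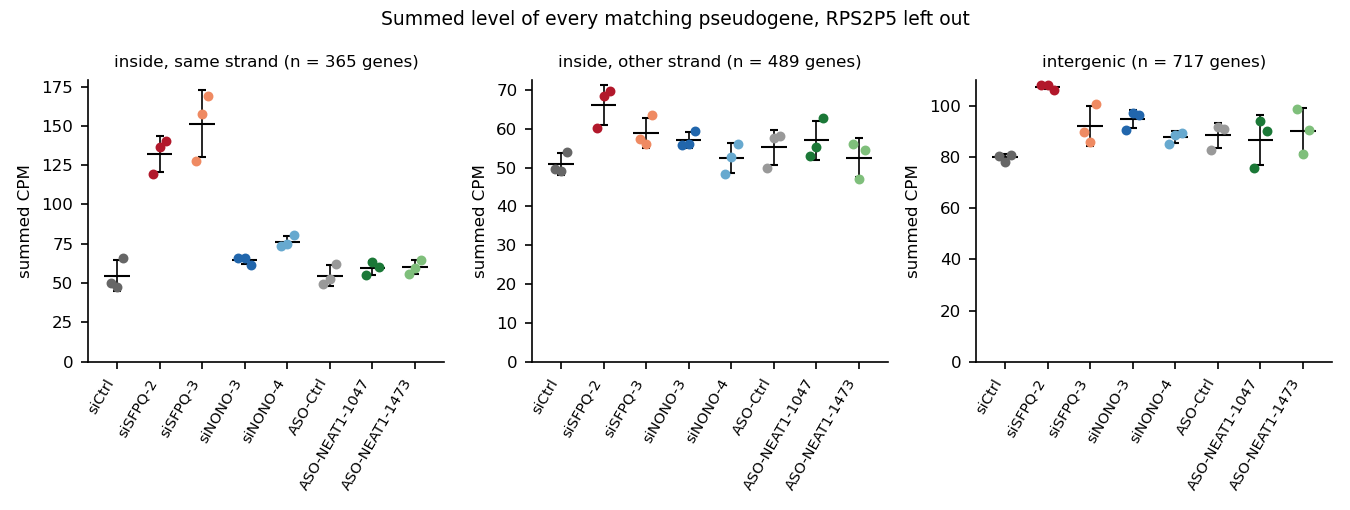
Summed CPM of every pseudogene that fits the symbol pattern, whatever its read count, in each library (points) with group mean and SD (n = 3), for the 3 main positions and with RPS2P5 left out. For the 365 same-strand pseudogenes all 6 siSFPQ libraries (119 to 169 CPM) lie above the other 18 (47.7 to 80.5 CPM). The intergenic and other-strand sums of the siSFPQ libraries lie above those of siCtrl but overlap other groups.

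Among the small-subunit copies, 7 same-strand members had a log2 fold change above 3, of which RPSAP51 in RIMKLB was lowest (3.39, host 1.19). RPS26P42 (chr10:75125217-75125862) is a copy of RPS26, a protein near the mRNA exit of the ribosome, in a 38.7 kb intron of SAMD8, a ceramide phosphoethanolamine synthase gene. It had no read in the 3 siCtrl libraries and 59 in the siSFPQ libraries, at 0.639, 0.992 and 1.68 CPM with siSFPQ-2 and 0.954, 1.23 and 1.93 CPM with siSFPQ-3. Against a floor of 3 reads over the siCtrl group this is at least 14.8-fold higher. SAMD8 rose by a log2 of 0.41 and RPS26 fell by 1.06, so the copy rose more than its host while its parent fell.

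RPS15AP30 (chr10:112987476-112987865) lies in a 75.4 kb intron of TCF7L2, a transcription factor of the Wnt pathway. It had 1 read in siCtrl and 65 in siSFPQ libraries, a ratio of 48.8 with a counting interval of 8.46 to 1957. TCF7L2 rose strongly too, from 13.6 ± 1.27 to 92.7 ± 19.9 and 98.7 ± 17.5 CPM (log2 2.82). RPS15AP29 (chr10:103125017-103125416), a second copy of RPS15A, lies in a 24.4 kb intron of NT5C2, a purine nucleotidase gene. It went from 0.179, 0.204 and 0.291 CPM to between 2.17 and 4.22 CPM in the 6 siSFPQ libraries (log2 3.52 ± 0.43, adjusted p = 4.89e-08 by edgeR), while NT5C2 fell by 0.49 on the log2 scale. These 2 copies of 1 parent rose inside hosts that moved in opposite directions.

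RPS16P5 (chr6:53336943-53337346), in a 53.1 kb intron of ELOVL5, an elongase of long-chain fatty acids, was at 0.0894, 0.204 and 0.219 CPM with siCtrl. With siSFPQ-2 it was at 3.32, 3.47 and 2.10 CPM and with siSFPQ-3 at 2.03, 2.95 and 3.61 CPM, a log2 fold change of 3.97 ± 0.46 (adjusted p = 1.46e-08 by edgeR). ELOVL5 fell by 1.59. RPS3AP12 (chr1:119126539-119127291), in a 57.1 kb intron of WARS2, the mitochondrial tryptophanyl-tRNA synthetase gene, had 2 reads in siCtrl, both in replicate 3, and 70 with siSFPQ, a ratio of 26.3 (7.01 to 221). RPS20P22, in an intron of the growth factor receptor gene FGFR1, went from 0.962 ± 0.31 to 13.3 ± 1.91 and 18.5 ± 1.16 CPM, the highest level of any same-strand riser. It already passed the filter without siSFPQ libraries. FGFR1 moved by a log2 of 0.30.

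Among the large-subunit copies, RPL7AP22 (chr2:158548425-158549224) rose most. RPL7A is a large-subunit protein, and this copy lies in a 43.7 kb intron of PKP4, a plakophilin-family gene of cell junctions. It was at 0, 0.204 and 0.291 CPM with siCtrl, 5.75, 5.21 and 6.30 CPM with siSFPQ-2 and 6.68, 7 and 5.30 CPM with siSFPQ-3. All 6 lay above every other library, and the log2 fold change was 5.04 ± 0.46 (adjusted p = 1.53e-10 by edgeR), and PKP4 fell by 1.00. None of its 50-base windows occurs in another annotated transcript, RPL7A included. How its reads were mapped was not tested.

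RPL35AP2 (chr9:34191555-34191881), in a 41.2 kb intron of UBAP1, a gene of the endosomal sorting machinery, went from 0.308 ± 0.19 CPM to 4.47 ± 1.69 and 3.96 ± 1.79 CPM (log2 3.77, adjusted p = 8.89e-08 by edgeR). UBAP1 fell by 0.24. RPL36AP33 in RUSC2 had 2 reads in siCtrl and 47 with siSFPQ, a ratio of 17.6 (4.62 to 150). RPL4P6 in MRTFA, the gene for a serum response factor coactivator, rose by a log2 of 3.84, but 33.4% of its length is also exon of MRTFA, so its reads cannot all be assigned to it.

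RPL5P4 (chr1:35350722-35351607) passed the filter without the siSFPQ libraries. RPL5 binds 5S rRNA in the large subunit, and RPL5P4 lies in a 33.5 kb intron of ZMYM4, a zinc-finger gene. It was at 1.43, 2.15 and 1.60 CPM with siCtrl, and between 5.37 and 8.19 CPM in the 6 siSFPQ libraries. All 6 were above every other library, whose highest was 2.46 CPM. The log2 fold change was 1.97 ± 0.22 (adjusted p = 1.03e-08 by edgeR). ZMYM4 went the other way, from 362 ± 15.8 to 179 ± 10.5 and 134 ± 6.89 CPM, a log2 of -1.22.

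The remaining same-strand members that rose had log2 fold changes of 0.80 to 3.39. Some lie in hosts that fell strongly. RPS12P16 lies in a 179 kb intron of the cell polarity gene PARD3. It went from 0.226 ± 0.13 to 1.34 ± 0.09 and 1.77 ± 0.09 CPM (log2 2.69) while PARD3 fell by 2.32. RPL17P19 lies 11.3 kb into ADGRL3, an adhesion receptor gene, and rose by 2.57 while ADGRL3 fell by 3.42 on the log2 scale.

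Over the same-strand class, 39 of the 44 members had a host that was itself tested. Of those hosts 16 rose, 16 fell and 7 were not called, with a median log2 fold change of 0.10. The member was above its host in 35 of 39 pairs, by a median log2 of 2.26, but members that pass only through siSFPQ libraries had to be high. Among the 18 pairs whose member passes without those libraries, the member was above its host in 14, by a median log2 of 0.65, and 8 hosts rose and 8 fell. Across the 39 pairs, Pearson's r between member and host was 0.41 and Spearman's rho 0.23. These are descriptions across genes from the same libraries, and members of 1 host are not independent. Of the 30 that rose, 28 had a tested host, and 12 of these hosts rose and 9 fell.

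Some same-strand members inside hosts that fell did not rise. RPL23AP34 in BABAM2 and RPS6P25 in GCDH fell with their hosts, at a log2 of -2.95 beside -3.43 and of -0.92 beside -1.94. RPL23AP74 in BCAS3 (log2 -0.67, host -2.39) and RPS20P9 in EHBP1 (-0.05, host -2.65) were not called. RPS6P25 lies in a 2.11 kb intron. RPS6P25 lost its call in 7 of 29 alternative analyses.

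**Figure D3:**
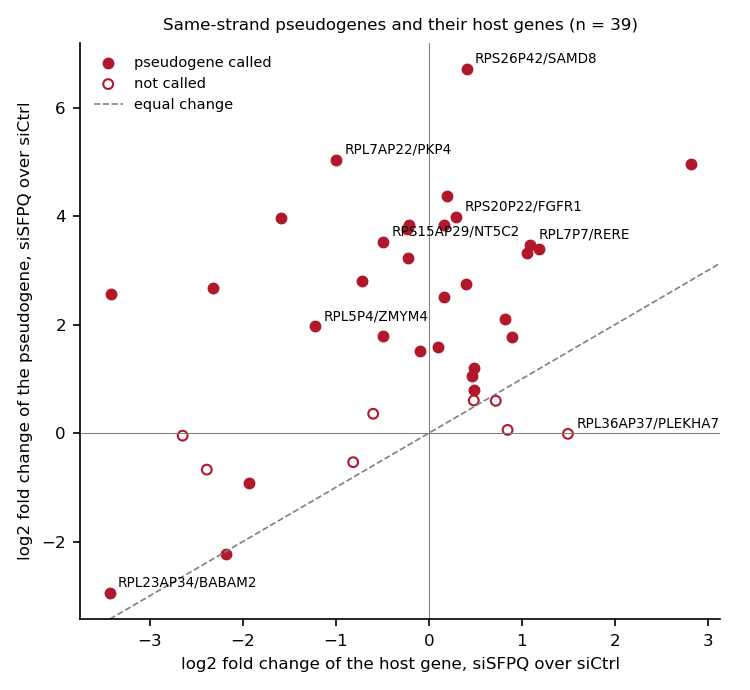
Log2 fold change with SFPQ knockdown of 39 same-strand pseudogenes (y axis) against that of the gene they lie in (x axis), with filled points called by edgeR and the dashed line marking equal change. In 35 of 39 pairs the pseudogene lies above the line, and in 14 of the 18 pairs whose pseudogene passes the filter without siSFPQ libraries.

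Of the 21 other-strand members, 12 had a tested host, of which 2 rose, 6 fell and 4 were not called. Across these 12 pairs r between member and host was 0.26 and rho was 0.61, and 1 member was called. RPL6P10 (chr4:65573459-65574328), a copy of RPL6, lies antisense within EPHA5, an ephrin receptor gene that went from 0.142 ± 0.04 to 4.62 ± 0.37 and 5.55 ± 0.56 CPM (log2 5.03). RPL6P10 was at 0.869 CPM with siCtrl and 1.42 and 1.00 CPM with the SFPQ siRNAs, a log2 of 0.35 that was not called. RPL17P6 in PIGK (host log2 -2.35) had -0.11, and RPS27P3 in TSPAN9 (host -2.22) had 0.22. The 1 other-strand member that rose, RPL31P46 (chr11:74876286-74920022), is a gene model of 14 exons inside XRRA1. It went from 1.34, 0.920 and 1.31 CPM to 1.98 to 5.42 CPM in siSFPQ libraries (log2 1.72 ± 0.27, adjusted p = 2.30e-06 by edgeR).

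Intergenic members were mixed. RPS15AP36 (chr19:58216180-58216561) rose by a log2 of 3.07 ± 0.36 (adjusted p = 1.77e-08 by edgeR), from 0.307 to 0.536 CPM in siCtrl to 2.23 to 4.58 CPM in siSFPQ libraries. It lies 2.62 kb downstream of the end of ZNF274, a zinc-finger repressor gene on the same strand whose own change was 0.25. RPL5P18 rose by 2.01 and lies 5.72 kb downstream of YWHAZP4, another pseudogene, which rose by 2.13. RPL3P4, RPL13AP5 and RPL4P5 rose by 0.71, 0.72 and 0.74. RPL3P4 is 99.5% identical to RPL3, which rose by 0.57, and 92.2% of its 50-base windows occur in other transcripts.

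RPS11P1 (chr20:11345383-11345855), an intergenic copy that lies 191 kb from the next gene upstream on its strand, fell to 0 reads. It was at 1.34, 0.511 and 1.31 CPM with siCtrl, at 0 in all 6 siSFPQ libraries, and between 0.605 and 2.37 CPM in the 15 other libraries. Against a floor of 3 reads over the 6 siSFPQ libraries it was at least 16.9-fold lower (adjusted p = 3.57e-06 by edgeR). RPS23P2, also intergenic, had 16 reads in siCtrl and 4 with siSFPQ, and its log2 fold change was -2.42 (adjusted p = 0.00638 by edgeR). RPL21P16, which is 100.0% identical to RPL21, and RPS7P1, which lies antisense in ENSG00000258472 and is 99.1% identical to RPS7, fell by 0.99 and 0.98 on the log2 scale. Their parents moved by -0.20 and -0.45. RPS3AP34, a same-strand member, fell by 2.24 and its host ENSG00000283674 by 2.18 on the log2 scale. In siCtrl, 42 of its 57 reads came from replicate 3, and without that library the value was -1.14 and not called (adjusted p = 0.0788 by edgeR).

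**Figure D4:**
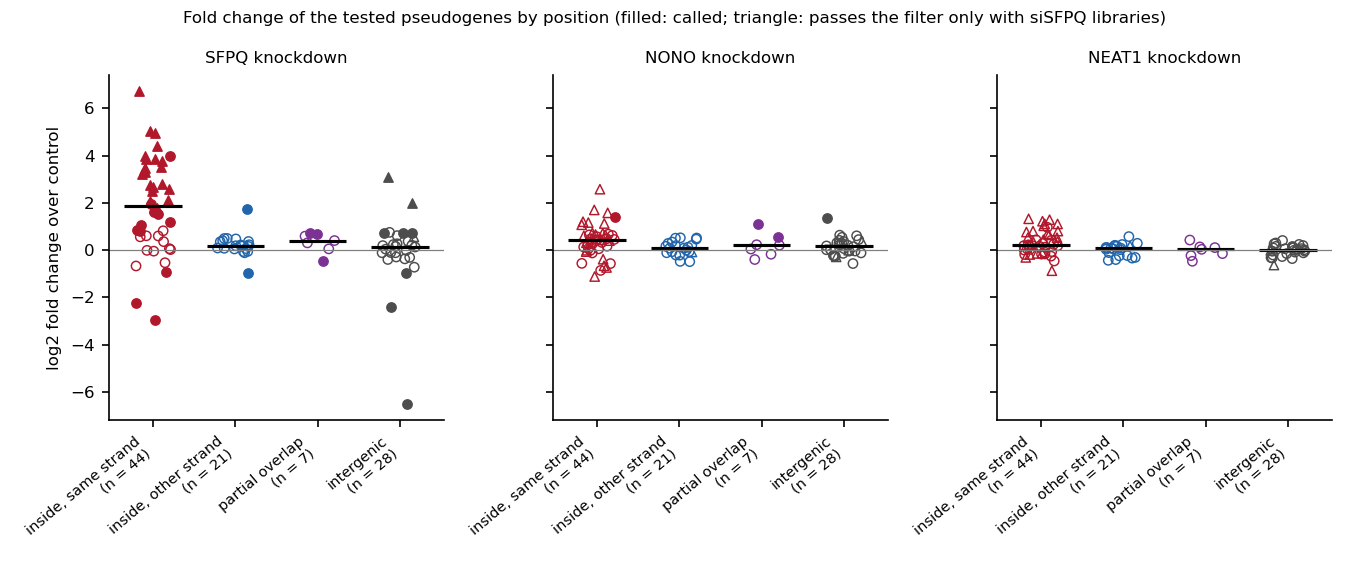
Log2 fold change of the 100 tested pseudogenes over the control of their arm, by position (x axis) and target (panels), with the median as a line, filled points called by edgeR and triangles for the 26 that pass the filter only through siSFPQ libraries. With SFPQ knockdown the same-strand median is 1.88 against 0.18 for other strand and 0.14 for intergenic, and no point is filled in the NEAT1 panel.

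The members with the highest levels in siCtrl were not called. RPS2P5 (chr12:118246084-118246962) alone had 101 ± 5.49 CPM with siCtrl, 103 ± 15.3 with siSFPQ-2 and 90.6 ± 16.7 with siSFPQ-3, and the groups overlapped (log2 -0.06, adjusted p = 0.649 by edgeR). It lies antisense in TAOK3, a kinase gene, which fell by 2.32 on the log2 scale. Per kilobase its siCtrl level was 60.8% of that of RPS2, its parent, to which it is 98.7% identical. Of its 50-base windows, 57.1% occur in RPS2. RPL7P9, RPL7P1, RPS13P2, RPLP0P6 and RPL14P1, at 4.39 to 13.3 CPM in siCtrl, had log2 fold changes of 0.05 to 0.36, none called, and identities to the parent of 97.1% to 99.7%. RPL32P3, a gene model of 26 exons, stayed at 13.5 CPM with siCtrl and 13.9 and 14 with siSFPQ, and RPS10P7 at 5.54, 7.74 and 6.77 CPM was not called. Per kilobase, RPS2P5 (115 CPM) was followed by RPL7P9 (17.8 CPM) and RPS13P2 (12.7 CPM).

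Identity to the parent and position went together in the tested members. The median identity was 87.6% for same-strand members, 98.3% for other strand and 97.5% for intergenic, and the median share of 50-base windows that occur in another transcript was 1.78%, 50.3% and 46.4%. Over all 461 members, tested or not, these medians lay closer together. Identity was 89.5%, 95.3% and 93.9%, and the window share 2.74%, 26.0% and 12.3%. Of the 57 tested members under 95% identity, 33 rose and 6 fell, while of the 42 at 95% or more, 4 rose and 2 fell. Within the lower group, 28 of 37 same-strand members rose against 1 of 5 on the other strand and 2 of 10 intergenic. Within the higher group, 1 of 6 same-strand members rose. The lower group holds nearly all members that pass only through siSFPQ libraries. Among members under 95% identity that pass without them, 7 of 16 same-strand members rose and 3 fell, against 1 of 4 on the other strand and none of 7 intergenic. Across the 43 same-strand members with an alignment, log2 fold change and identity had r = -0.46 and rho = -0.52, and across the 22 that pass without siSFPQ libraries r = -0.14 and rho = -0.19. The part of uncertain mapping in these differences was not tested. RPL36AP37 is the extreme case: it lies on the same strand in a 131 kb intron of PLEKHA7, which rose by 1.5, but all of its 50-base windows occur in RPL36A. It was at 1.70, 0.818 and 1.68 CPM with siCtrl and at 0.954 to 1.74 CPM with siSFPQ (log2 -0.01), while RPL36A fell by 1.09.

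**Figure D5:**
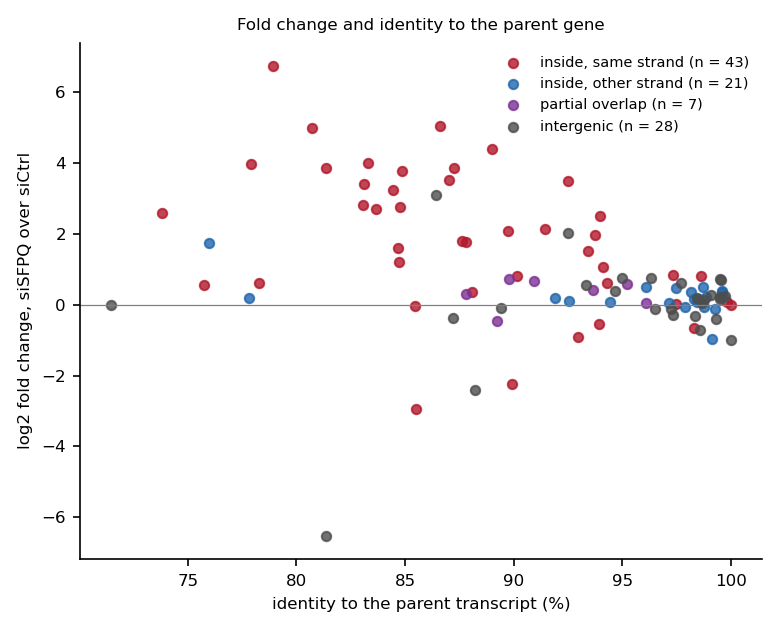
Log2 fold change with SFPQ knockdown (y axis) of the 99 tested pseudogenes with an alignment to their parent against percent identity to it (x axis), coloured by position. The points above a log2 of 1 lie below 95% identity, and most are same-strand members.

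Among same-strand members the fold change had r = -0.76 with siCtrl CPM (n = 44). These 2 quantities share the siCtrl libraries, and the filter fixes part of the relation, since 22 of the 44 passed by being near 0 without siSFPQ and high with it. Across the other 22, r was -0.49 and rho -0.25. With the length of the host intron that holds the member it had r = 0.22 and rho = 0.44 (n = 41), and with the span of the host r = -0.08 (n = 44). Among members that pass without siSFPQ libraries these were -0.16 and -0.17 for the intron (n = 20) and r = -0.46 for the span (n = 22), so the sign for intron length depends on the selection. All of these are descriptions across genes from the same libraries.

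NONO knockdown moved few members. Of the 100, 4 rose and none fell, where 7.47% of all genes rose and 9.96% fell. At an unadjusted p under 0.05, 9 were higher and none lower, where 4829 of all 15869 genes passed, 2209 of them higher. By siRNA, 5 members rose and 1 fell with siNONO-3 (9.02% and 10.9% of all genes), and 2 rose and none fell with siNONO-4 (5.1% and 5.94%). The same-strand median was 0.44, against 0.08 for other strand and 0.16 for intergenic. The 2 siRNAs differed in this. With siNONO-3 the 3 medians were 0.20, 0.22 and 0.19, and with siNONO-4 they were 0.59, -0.04 and -0.003. Among members that pass without siSFPQ libraries, the medians over both siRNAs were 0.30, 0.10 and 0.18. RPL23AP34 (chr2:28308161-28308570) went from 2.23, 2.97 and 6.41 CPM with siCtrl to 9.38, 8.70 and 9.32 CPM with siNONO-3 and 12.3, 11.3 and 13.6 CPM with siNONO-4. The log2 fold change was 1.42 ± 0.31 (adjusted p = 0.00293 by edgeR). Its host BABAM2, a subunit gene of the BRISC and BRCA1-A complexes, rose by 0.73. With siSFPQ the pair moved the other way, RPL23AP34 to between 0 and 1.36 CPM and BABAM2 from 205 ± 37.2 to 21.3 ± 2.64 and 16.7 ± 2.59 CPM. Every base of RPL23AP34 is also exon of a gene on the other strand, and reads of the 2 strands cannot be told apart if strand was not used in counting.

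RPL23AP53 rose by 1.08 ± 0.18 (adjusted p = 8.83e-05 by edgeR), from 4.54 ± 0.68 to 9.91 ± 1.43 and 9.50 ± 0.78 CPM, and all 6 siNONO libraries were above the 3 siCtrl ones. RPL23AP82, a 29-exon model, had 0.57 with NONO (adjusted p = 0.0266) and -0.46 with SFPQ (adjusted p = 0.0354), both by edgeR and each lost in 6 of 29 alternative analyses. Of the windows of RPL23AP53, 11.1% occur in RPL23AP82, so these 2 are not independent. RPS23P2 rose from 0.455 ± 0.05 to 1.19 ± 0.72 and 1.19 ± 0.58 CPM, with a log2 of 1.36 (adjusted p = 0.0372 by edgeR) that was lost in 9 of 29. RPL7AP22, the strongest large-subunit riser with SFPQ, had 1.70 with NONO (adjusted p = 0.0525 by edgeR), which passed in 6 of 29 alternatives. The test of the difference between SFPQ and NONO effects called 38 members higher with SFPQ and 10 lower (background 37% and 38.4%), of which 30 and 4 were same-strand members. Of the 74 members that pass without siSFPQ libraries, 14 were higher and 10 lower, with 8 and 4 of the 22 same-strand ones. The 2 effects share the siCtrl libraries, which cancel in this test.

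In the ASO arm no member was called, in the mean of both ASOs or with either (0% of all genes called). At an unadjusted p under 0.05, 2 of 100 members passed, as did 353 of all 15869 genes. The same-strand median was 0.22, the other-strand median 0.08 and the intergenic median 0.02. Among members that pass without siSFPQ libraries these medians were 0.14, 0.07 and 0.03. RPL7P7 was at 0.204 to 0.269 CPM with ASO-Ctrl and 0.185 to 0.471 CPM in the ASO-NEAT1 libraries. No member differed between ASO-Ctrl and siCtrl at the adjusted threshold (background 0.454%). At an unadjusted p under 0.05, 8 of 100 did, as did 1266 of all 15869 genes. Agent and arm cannot be told apart in that comparison.

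Other processed pseudogenes, 407 of which were tested out of 1936 with 10 or more reads, give the comparison for the family. With SFPQ knockdown 93 of 176 same-strand copies rose and 17 fell (median 0.98), 11 of 63 other-strand copies rose and 22 fell (median -0.14), and 30 of 136 intergenic copies rose and 35 fell (median -0.07). Of all tested genes 34.7% rose and 35.8% fell. The filter acts here as well, and part of the 176 passed only through siSFPQ libraries. Among those that pass without the siSFPQ libraries, 30 of 107 same-strand copies rose and 17 fell (median 0.15). That share of risers, 28.0%, is below that of all genes, which were not filtered in this way. In both sets the same-strand copies had the highest median. Whether the ribosomal protein copies differ from the others was not tested.

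The parents did not move as the copies did. Over the 47 parents of tested members, log2 fold changes with SFPQ ranged from -1.09 to 0.57 with a median of 0.04, and across the 100 members r with the parent was -0.17. Of 48 large-subunit protein genes 12 rose and 8 fell, led by RPL3 (0.57) and RPL36A (-1.09). Of 32 small-subunit genes 10 rose, with RPS27 highest (0.39), and 6 fell, among them RPS26 (-1.06) and RPS10 (-0.51). Of 5 tested paralogs 1 rose (RPS27L, 0.79) and 3 fell (RPL39L -1.40, RPL26L1 -1.02, RPL7L1 -0.30). Of 16 other genes of the 5′ TOP class, whose mRNAs share the translational control of ribosomal protein mRNAs, 8 rose and 3 fell. Of 30 ribosome biogenesis genes 3 rose and 24 fell, with NHP2 (-1.88), NIP7 (-1.60) and NOLC1 (-1.25) lowest. With NONO knockdown 9 of 48 large-subunit genes rose and none fell, 4 of 32 small-subunit genes rose and 1 fell, and 8 of 30 biogenesis genes rose and none fell. The shares of all tested genes to read these counts against are 34.7% higher and 35.8% lower with SFPQ, and 7.47% and 9.96% with NONO, so both subunit lists had fewer calls with SFPQ than all genes in each direction.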

How the data were processed

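RNA from 24 libraries of SBC-3 cells (8 groups, 3 each) was counted per gene. The deposited files hold whole-number counts per gene with exon coordinates. Per the submitters' processing notes, cutadapt 4.2, STAR 2.7.5a, featureCounts (Subread 2.0.3), DESeq2 1.38.1 and the hg38 build were used. The strand setting, the handling of multi-mapping reads and the annotation release: not given in the sources used here. Counts were fitted here with edgeR 4.0.16 in R 4.3.3 (TMM scaling, filterByExpr by group, robust quasi-likelihood, all 24 libraries in 1 fit). P-values were Benjamini-Hochberg adjusted over 15869 genes, and a gene was called at an adjusted p under 0.05. SFPQ and NONO effects are the mean of 2 siRNAs against siCtrl, and NEAT1 effects the mean of 2 ASOs against ASO-Ctrl. Positions come from the count files. Identity (BLAST 2.17.0) and shared 50-base windows come from GENCODE release 29 transcripts. The fit was tested on simulated data whose changed genes had higher counts than most members here, so that test does not cover members with few reads. Same-numbered ASO libraries deviated together (r = 0.131 to 0.428 for each pair), and blocking left 0 NEAT1 calls. Counting intervals are exact at the 95% level. The named members are RPL7P7, the 10 with the highest mean CPM, and up to 10 per target and direction with the largest fold change among those called. The others, named for their position, host or parent, were chosen after their values were seen. Members and lists were chosen with earlier results of these data known. Some genes and sequences are not reported here.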

Additional observations from a re-analysis of the deposited data

How the results depend on the processing

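Of 56 fold changes of named members (SFPQ and NONO), 9 changed sign in at least 1 alternative, and none of these 9 was called in the main analysis. They were RPS2P5 and RPL32P3 with both targets, RPS13P2 with SFPQ, and RPLP0P6, RPS11P1, RPS20P22 and RPS3AP34 with NONO. Counts of members moved mainly with the filter on low counts. With no filter, SFPQ knockdown had 58 of 461 members higher and 16 lower (15.8% and 16.5% of 38046 genes), with 9 same-strand members lower and a same-strand median of 0.52. NONO then had 3 lower (4.46% of all genes), 1 of them same-strand, and medians of 0.16 (same strand), -0.012 (other strand) and -0.006 (intergenic). Without that filter the NEAT1 same-strand median was 0.074. SFPQ minus NONO then had 69 higher and 23 lower (18.8% and 17.7% of all genes), and ASO-Ctrl minus siCtrl had 2 lower (0.297%). With the filter set on the 18 libraries outside siSFPQ, an alternative added after seeing the data, 14 members were higher with SFPQ, 9 of them inside another gene, 8 same-strand and 3 intergenic, and the same-strand median was 0.58. With protein-coding hosts only that median was 2.54, and without members that share an exonic base with another gene 1 was higher with NONO. With the replicate block, 7 members were higher with NONO (13.0% of all genes), 2 of them same-strand, and it moved no other such count by over 1.5 times. In the siRNA arm not every same-numbered pair deviated together (r from -0.040 to 0.329), although all 10 pairs of replicate 3 did (0.106 to 0.329).

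Leaving out 1 library at a time lets more members pass the filter, which then needs 2 libraries. Members lower with SFPQ ranged from 5 (without siCtrl replicate 3) to 9, and same-strand ones from 1 (without siCtrl replicate 3) to 4. Of all genes 32.7% to 36.7% were lower with SFPQ in these fits. Members higher with NONO ranged from 2 (without siCtrl replicate 1 or 2) to 5, same-strand ones from 1 to 3, and those lower from 0 to 1 both in all and for same strand. Of all genes 4.42% to 7.71% were higher with NONO and 5.73% to 10.4% lower. Members lower with ASO-Ctrl than siCtrl ranged from 0 to 1, where 0.061% to 0.361% of all genes were lower. The NONO median ranged from 0.26 to 0.59 (same strand) and from 0.059 to 0.19 (intergenic), and the NEAT1 median from 0.090 to 0.27 (same strand) and from -0.076 to 0.062 (intergenic). The causes of these shifts were not tested. Counts of 10 or fewer reads per group limit what can be said of single members, and intervals cover counting error only.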
